A study of Mus musculus with 6 samples.

Results

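The 36 genes described here are the S and G2/M phase members of the cell cycle, chosen by name from the 32285 measured features. The G2/M list holds 25 of them and the S list 10, and Stmn1, a microtubule-destabilising protein that dividing cells regulate, is kept apart. They were followed in leukaemia cells and in each class of lung niche cells of 6 single-cell libraries of mouse lung. Libraries Control 1, 2 and 3 came from normal lungs, and AML 1, 2 and 3 came from lungs infiltrated by acute myeloid leukaemia (AML) that carries Trp53 R172H/Δ, an altered p53 locus. All suspensions were made with Liberase and DNaseI, and non-haematopoietic cells, the niche, were sorted from them. In the AML libraries sorted GFP-positive leukaemia cells were then added, at 20% of the suspension with 80% niche cells, so the number of leukaemia cells was set by the experimenters. The labels do not give the strain, the age, the number of animals per library or the route of the leukaemia, and p-values measure only the spread between libraries, which may be technical.

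A dividing cell copies its DNA in S phase and separates the copies in mitosis, after the G2 gap. S genes encode the replicative helicase (Mcm2, Mcm3, Mcm5 and Mcm6) and the replication clamp Pcna with its partner Pclaf. They also encode enzymes that make nucleotides (Rrm1, Rrm2, Tyms, Tk1). G2/M genes encode the mitotic kinase Cdk1 with its cyclins, and the proteins of the spindle, centromere and cytokinesis. The G1 gate ahead of S phase is set by D-type cyclins with Cdk4 and Cdk6, which free E2F factors from the retinoblastoma protein, and by inhibitors such as p21 (Cdkn1a). In the adult lung most endothelial, mesenchymal and epithelial cells rest outside this cycle.

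The promoters of the members are shown first, since many G2/M members share promoter motifs. RefSeq promoters on GRCm38.p6, from 250 bases before to 50 after the transcription start, were matched for 32 of the 36 members; Ccna2, Aurkb, Tpx2 and Stmn1 are named only. Both strands were searched for the CCAAT box bound by NF-Y (CCAAT), for the cell cycle genes homology region, or CHR, which MuvB complexes bind (TTTGAA), and for 2 forms of an E2F site (TTTGGCGC and TTCCCGCC). No motif contains the letters of another. A CCAAT box lay in 20 of 22 G2/M promoters (90.9%), against 37.9% of all 27025 promoters. A CHR lay in 16 of 22 (72.7%), against 18.1% of all promoters, and all 16 held a CCAAT box too, a pair found in 7.1% of all promoters. The S promoters differed in this: 8 of 10 held CCAAT, 1 of 10 held the CHR, and each E2F form lay in 3 of 10, against 0.5% and 2.2% of all promoters. No G2/M promoter of the 22 held either E2F form in these letters.

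The 120 bases before the start are printed for 4 G2/M members that carried a CHR and CCAAT boxes in the searched window (Cdk1, Top2a, Ube2c and Ccnb2, the last with its CHRs outside the printed bases), for Hmgb2, whose levels differ from the others below, and for the S member Mcm6. Capitals mark the motif letters on either strand.
Cdk1 (chr10:69352913-69353032, minus strand): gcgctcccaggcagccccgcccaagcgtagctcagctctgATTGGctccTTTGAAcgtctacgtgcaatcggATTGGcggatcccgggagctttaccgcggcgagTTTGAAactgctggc
Top2a (chr11:99024190-99024309, minus strand): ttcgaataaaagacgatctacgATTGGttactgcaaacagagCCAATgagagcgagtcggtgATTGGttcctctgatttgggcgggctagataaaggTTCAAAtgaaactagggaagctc
Ube2c (chr2:164769809-164769928, plus strand): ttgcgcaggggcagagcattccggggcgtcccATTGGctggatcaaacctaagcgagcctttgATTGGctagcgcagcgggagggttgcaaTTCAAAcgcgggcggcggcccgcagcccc
Ccnb2 (chr9:70421555-70421674, minus strand): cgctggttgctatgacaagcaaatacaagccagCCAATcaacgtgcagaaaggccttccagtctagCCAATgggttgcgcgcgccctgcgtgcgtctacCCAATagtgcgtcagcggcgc
Hmgb2 (chr8:57511723-57511842, plus strand): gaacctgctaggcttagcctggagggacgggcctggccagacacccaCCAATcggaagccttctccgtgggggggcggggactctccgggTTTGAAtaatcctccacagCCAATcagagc
Mcm6 (chr1:128359706-128359825, minus strand): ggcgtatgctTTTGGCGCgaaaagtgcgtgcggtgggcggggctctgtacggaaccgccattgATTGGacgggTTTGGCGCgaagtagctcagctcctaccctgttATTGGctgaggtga
Cdk1 holds 2 copies of TTTGAA in the printed bases, and Top2a and Ube2c hold it as TTCAAA. Hmgb2 has a CHR between CCAAT boxes. Mcm6 alone of the 6 shows TTTGGCGC, in 2 copies.

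Cells were clustered without the cell cycle genes, so that dividing cells stayed with their own type, and named by fixed markers. A class name below means like that cell type by those markers. Of 28516 barcodes 23745 cells were kept, and libraries shared 1 to 20 cell barcodes in pairs, of 1742 to 6086 cells each. Total UMIs, the counted molecules, were 19060359 to 26789176 in the Control and 39919902 to 46018541 in the AML libraries. Median UMIs per cell were 4794.5 to 8323.5 in Control and 3723 to 4685.5 in AML libraries, highest in Control 1, so counts of cells were made after thinning each cell to 2000 UMIs. Cells with fewer than 2000 UMIs were left out of these counts. Levels are UMIs of a gene per 1e6 UMIs of a class, known as CPM. Leukaemia cells formed 2 clusters, led by Mki67 (2199 cells) and Cited1 (644 cells), and AML 1, 2 and 3 held 607, 1138 and 1094 of them; 4 cells of the Control libraries fell in these clusters. Niche classes with at least 20 cells in every library were general capillary, aerocyte (the gas-exchange capillary cell), arterial, venous, alveolar fibroblast, smooth muscle, alveolar type 2 and ciliated cells. To these was added an unnamed endothelial cluster led by Esm1, Hey1 and Plvap, called Esm1-led, for which AML 2 held only 32 cells. Control and AML general capillary cells lay mostly in different clusters: a cluster led by Sox11 was 21.5% AML cells, clusters led by Ankrd37 and Plat were 99.1% and 99.7% AML cells, and a smaller one led by Nckap5 was 43.8% AML cells.

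Leukaemia cells cycled in large part and niche cells hardly at all. A cell was called G2/M where its 2000 UMIs held at least 3 different genes of 23 core G2/M members (without Hmgb2 and Cks2), and S where they held at least 3 S genes and no G2/M call. Of leukaemia cells, 69.1% were called cycling in AML 1 (411 of 595 cells, 95% exact binomial interval 65.2 to 72.8), 57.3% in AML 2 (624 of 1089, 54.3 to 60.3) and 47.3% in AML 3 (499 of 1056, 44.2 to 50.3). The mean was 57.9% ± 10.9 (SD, n = 3), and the 3 intervals did not overlap. Intervals cover counting error only. Median UMIs per leukaemia cell had the same order, 29817, 22832 and 20556, and their part in the difference was not tested. G2/M calls made up 54.0, 45.2 and 35.8% of the cells, and S calls 15.1, 12.1 and 11.5%. The cut lay within the range of the cells: 58, 98 and 76 leukaemia cells had exactly 2 core genes and 52, 98 and 69 exactly 3. With all UMIs the share was 96.4, 89.5 and 84.8%, so the share depends on depth.

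In the named niche classes together, 0.28, 0.46 and 0.33% of cells were called cycling in AML 1, 2 and 3, and 0.30, 0.42 and 0.90% in Control 1, 2 and 3. The groups overlapped. These niche shares are also the rate that the same call gives in cells that mostly rest, at 2000 UMIs. Free RNA in the droplets can add UMIs to any cell, so the S calls of niche cells are not read as cycling.

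**Figure D1:**
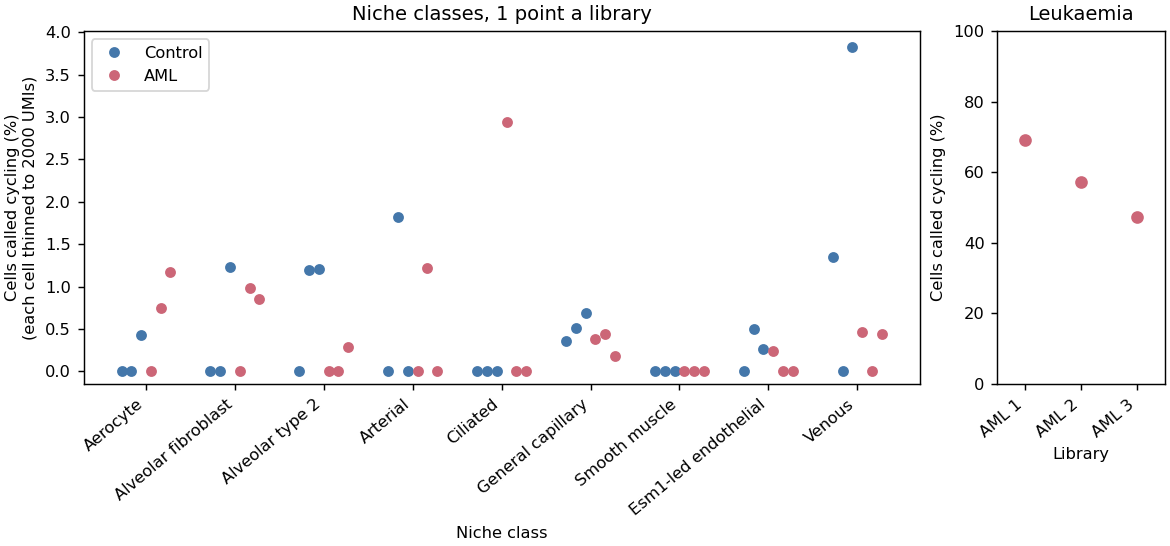
Share of cells called cycling (y axis, percent of cells thinned to 2000 UMIs) in 9 niche classes, 1 point a library, Control in blue and AML in red, and in leukaemia cells of the 3 AML libraries on an axis of 0 to 100. Leukaemia cells lie between 47.3 and 69.1%, and the highest niche value is 3.82%, in venous cells of Control 3.

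All 25 G2/M members and all 10 S members were higher in leukaemia cells than in the niche classes of the same library, in each of the 3 AML libraries. The ratio, averaged over libraries, ran from 9.12 to 270-fold over the G2/M members with a median of 67.0, and from 4.06 to 121-fold over the S members with a median of 17.5. This contrast between clusters of cells is a description with no test, since clusters were drawn from the same cells. The share of all genes that were higher in leukaemia cells in all 3 libraries was not counted. Among mitotic regulators, Cdk1, the kinase that starts mitosis, stood at 96.3, 91.1 and 71.6 CPM in leukaemia cells of AML 1, 2 and 3, and at 0.46, 0.39 and 0.46 in the niche. Ccnb1, a cyclin that activates Cdk1, stood at 67.6, 69.6 and 41.0 CPM, against 0.23, 0.52 and 0.58. Ccnb2, its relative, stood at 66.5, 72.0 and 53.5 CPM, against 0.38, 2.45 and 1.56. These kinase partners were lowest in AML 3, the library with the lowest share of cycling cells. Mki67, which coats mitotic chromosomes, stood at 395, 307 and 261 CPM, against 0.84, 1.61 and 1.73 in the niche. Top2a, which untangles DNA, stood at 377, 274 and 274 CPM, against 2.38, 3.23 and 3.0. Both were highest in AML 1.

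Birc5, a passenger protein of the chromosomes that also restrains cell death, stood at 180, 167 and 122 CPM, and at 0.84, 2.77 and 2.37 in the niche. Ube2c, which works with the anaphase-promoting complex, stood at 246, 171 and 117 CPM, against 3.30, 2.06 and 4.62. Cenpf, a kinetochore protein, stood at 75.8, 96.7 and 60.6 CPM, against 0.69, 1.10 and 1.33. In all of these the niche libraries lay far below the leukaemia libraries and did not overlap with them. Hmgb2, a chromatin protein that bends DNA, had the smallest ratio of the G2/M list. It stood at 1645, 1834 and 1544 CPM in leukaemia cells and at 157, 213 and 186 CPM in the niche. A UMI of Hmgb2 was seen in 79.1 to 84.9% of leukaemia cells and in 25.9 to 33.3% of niche cells at 2000 UMIs.

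Of the S members, Pclaf stood at 158, 206 and 164 CPM in leukaemia cells, against 2.07, 1.23 and 1.38 in the niche. Rrm2, a subunit of the enzyme that makes deoxynucleotides, stood at 89.3, 64.0 and 65.7 CPM, against 0.84, 1.35 and 0.81. Mcm5 stood at 112, 81.3 and 73.5 CPM, against 3.30, 3.42 and 3.40. These were nearly silent in the niche, whereas the next S members were not. Mcm6 stood at 185, 163 and 175 CPM in leukaemia cells and at 16.6, 21.9 and 20.7 in the niche. Tyms, which makes thymidylate, stood at 200, 176 and 148 CPM, against 14.2, 14.4 and 11.1. Pcna stood at 312, 285 and 281 CPM, against 60.5, 86.2 and 75.8, the smallest ratio of the S list. Stmn1 differed least of all members: 681, 607 and 559 CPM in leukaemia cells against 302, 142 and 167 in the niche.

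**Figure D2:**
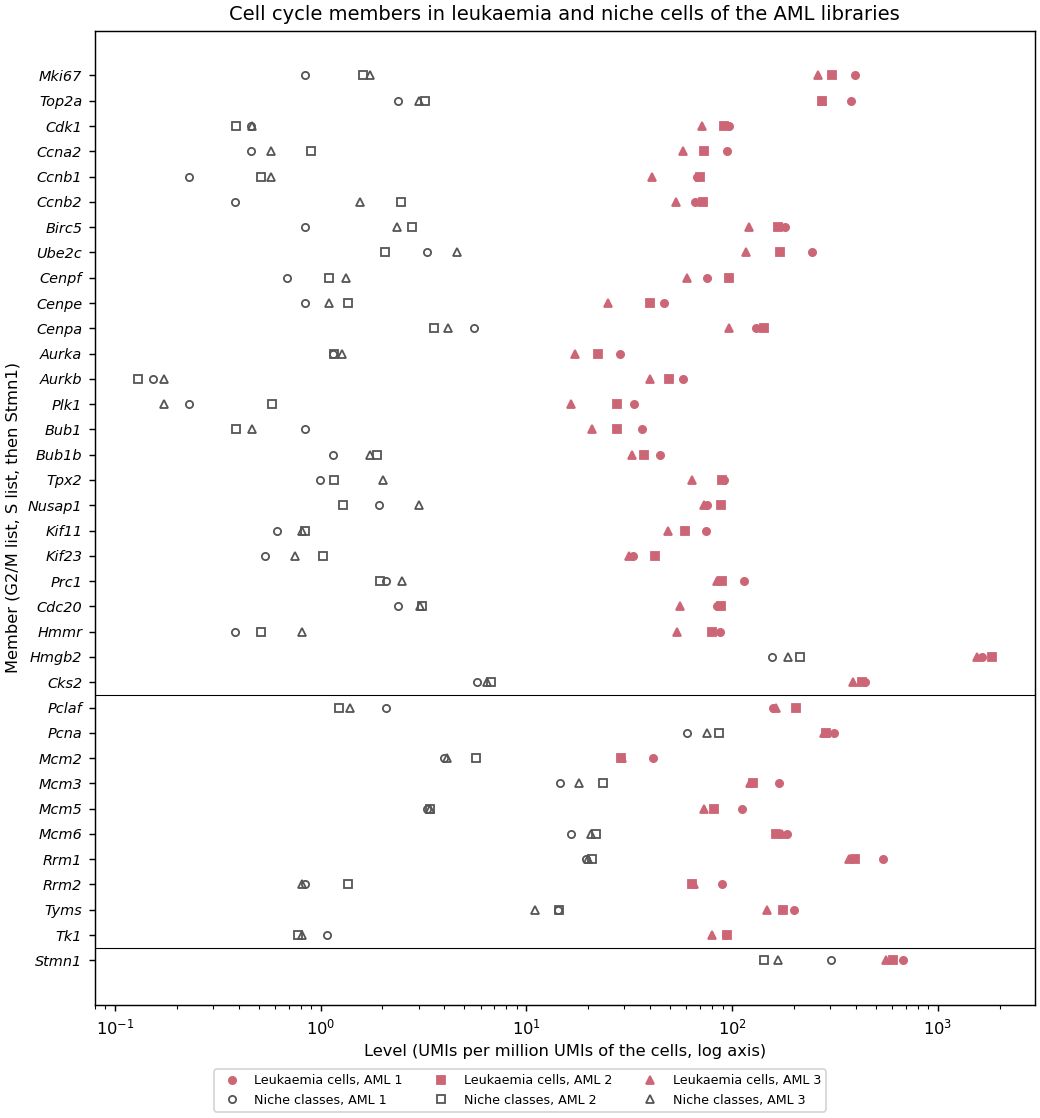
Level of each of the 36 members (x axis, CPM, log scale) in leukaemia cells (filled) and in the named niche classes together (open) of AML 1, 2 and 3. Filled points lie to the right of open ones for every member. The smallest mean ratios are those of Stmn1 (3.29) and Pcna (4.06).

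The leukaemia clusters are compared next. In the Mki67-led cluster 68.5, 53.7 and 45.2% of cells were called cycling in AML 1, 2 and 3, and in the Cited1-led cluster 72.5, 63.9 and 64.0%. Mki67 stood at 427, 394 and 282 CPM in the first and at 73.4, 104 and 92.5 in the second. Top2a stood at 399, 316 and 287 CPM against 160, 175 and 169. Hmgb2 ran the other way, at 1603, 1607 and 1481 CPM against 2076, 2367 and 2061, and so did Birc5, at 177, 141 and 114 CPM against 212, 229 and 183. Each of these 4 genes kept its direction in all 3 libraries. Mki67 and Birc5 are among the top 10 genes by fold of the Mki67-led and of the Cited1-led cluster, so their difference is a description of the clusters.

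Regulators of the cycle, 30 genes from a fixed list, were higher in leukaemia cells than in the niche in all 3 AML libraries for 20 and lower in all 3 for 8. The share of all genes with 1 direction was not counted, so these counts only describe the list. Of the G1 cyclins, Ccnd1 was nearly absent from leukaemia cells, at 0.99 CPM ± 0.22 (SD, n = 3) against 127 ± 10.3 in the niche, whereas Ccnd2 stood at 144 ± 27.0 against 59.6 ± 2.81. Ccnd3 lay at 110 ± 12.5 against 105 ± 13.02, higher in all 3 libraries but by less than their spread. Their kinases were both higher in leukaemia cells. Cdk4 stood at 237 ± 39.4 CPM against 61.9 ± 4.63, and Cdk6 at 239 ± 32.5 against 20.3 ± 2.98. The E2F factor E2f1 stood at 26.7 ± 1.71 CPM against 0.43 ± 0.10, and E2f8, a repressor of the same family, at 37.7 ± 1.69 against 0.13 ± 0.05. Mybl2, which works with MuvB at G2/M promoters, stood at 27.2 ± 2.09 CPM against 0.60 ± 0.345, and Foxm1 at 10.6 ± 1.27 against 0.40 ± 0.17. Myc stood at 86.5 ± 17.2 CPM against 13.99 ± 11.3.

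The inhibitors split. Cdkn2a, the gene of p16 and p19Arf, stood at 285 CPM ± 1.12 (SD, n = 3) in leukaemia cells and at 3.70 ± 1.38 in the niche. Cdkn1a, which p53 is known to activate, stood at 31.7 ± 9.91 CPM against 1572 ± 472, and Cdkn1c at 0.23 ± 0.09 against 41.9 ± 6.10. Cdkn1b, at 55.8 ± 4.57 against 127 ± 22.4, and Rb1, at 36.5 ± 2.96 against 74.5 ± 9.32, were lower too. Ccne1, Ccne2, Cdk2, Rbl1, E2f2, E2f3, E2f4, E2f7, Lin9 and Tfdp1 completed the 20, with mean levels of 6.03 (E2f7) to 83.1 CPM (Tfdp1) in leukaemia cells. Cdkn2b, Cdkn2c and Rbl2 completed the 8. Cdkn2d and Lin54 had no single direction.

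Between AML and Control niche cells few members passed the test. Each class was tested with edgeR on UMIs summed per library, AML against Control, over all its genes. Only members that passed the filter on low counts were tested: 3 to 22 of the 36 in a class, most in general capillary cells. Summed over the 9 classes these are 75 tests, of which 3 showed a rise and 1 a fall, and 26 had an unadjusted p under 0.05. DESeq2 called 6. The fall was Cenpf in general capillary cells, 1 of 22 tested members against 3.63% of all genes called there. The rises were all Hmgb2, in aerocytes (1 of 9 members; 3.13% of all genes called), in alveolar fibroblasts (1 of 4; 1.35%) and in the Esm1-led cluster (1 of 9; 2.46%). In alveolar type 2 cells 0 of 11 members passed (4.17% of all genes called), with 4 at an unadjusted p under 0.05. Arterial cells had 0 of 6 (0.375%; 2 unadjusted), ciliated cells 0 of 3 (0.599%; 1 unadjusted), smooth muscle 0 of 3 (1.05%; 1 unadjusted) and venous cells 0 of 8 (0.424%; 0 unadjusted). DESeq2 also called 0 members in these last 5 classes. Over all genes an unadjusted p under 0.05 was held by 2029 of 9926 in alveolar type 2 and 636 of 5593 in arterial cells. It was held by 625 of 6843 in ciliated, 599 of 5432 in smooth muscle and 1018 of 8722 in venous cells. In aerocytes, fibroblasts, general capillary and Esm1-led cells it was held by 1383 of 8983, 1210 of 7774, 2653 of 11345 and 1262 of 9455. Members holding it were 2 of 9, 3 of 4, 10 of 22 and 3 of 9 in the same order. The median log2 difference of tested members was 0.42 in aerocytes, 0.21 in alveolar fibroblasts, 0.23 in the Esm1-led cluster and -0.40 in general capillary cells, beside -0.0041, -0.0015, -0.0019 and -0.0008 over all genes. Of 39 further phase genes none passed edgeR in any class (85 tests, 16 unadjusted), beside the counts over all genes above. DESeq2 called 1 of them, in general capillary cells.

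Hmgb2 (chr8:57511907-57515999, plus strand, GENCODE M21 on mm10) was higher in every AML library than in every Control library in 7 of 9 classes, the exceptions being alveolar type 2 and venous cells. In alveolar fibroblasts it measured 57.9, 57.8 and 50.8 CPM in libraries Control 1, 2 and 3, against 103, 241 and 178 CPM in AML 1, 2 and 3. It rose by 1.69 on the log2 scale (SE 0.30, edgeR adjusted p = 0.0143). In aerocytes it stood at 72.0, 108 and 88.6 CPM against 142, 176 and 181 in AML libraries. It rose there by 0.92 (SE 0.22, edgeR adjusted p = 0.0296). In the Esm1-led cluster it stood at 79.5, 129 and 123 CPM against 199, 320 and 213 CPM, the second AML value resting on 27 UMIs, and rose by 1.0 (SE 0.24, edgeR adjusted p = 0.0161). In all 3 classes the lowest AML library was above the highest Control library.

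The Hmgb2 calls did not survive the loss of every library. In fibroblasts the call was lost without Control 1, Control 2, Control 3 or AML 3 (edgeR adjusted p 0.000654 to 0.105 over the 6 omissions), in aerocytes without Control 3, AML 2 or AML 3 (0.0129 to 0.188), and in the Esm1-led cluster without AML 2 or AML 3 (0.00295 to 0.108). In general capillary cells Hmgb2 measured 73.8, 136 and 157 CPM in the Control libraries and 161, 237 and 230 CPM in AML libraries, with a log2 difference of 0.81 (SE 0.29) that did not pass (edgeR adjusted p = 0.131). With cells called cycling on all their UMIs left out it was 1.14 and passed (edgeR adjusted p = 0.0294), and it passed also with cell cycle genes kept for clustering (1.09, edgeR adjusted p = 0.0308). The call on all UMIs depends on depth, and the Hmgb2 UMIs that leaving out those cells took from each library were not counted. By the separate call on thinned cells, those called G2/M held 17 of 438, 190 of 1152 and 360 of 1044 Hmgb2 UMIs in Control 1, 2 and 3. In AML 2 they held 9 of 2097, and AML 1 and AML 3 had no such cells. In venous cells Hmgb2 measured 66.4, 141 and 386 CPM in the Control libraries and 165, 136 and 176 CPM in AML libraries, and the groups overlapped (log2 difference -0.28, SE 0.61, edgeR adjusted p = 0.899).

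**Figure D3:**
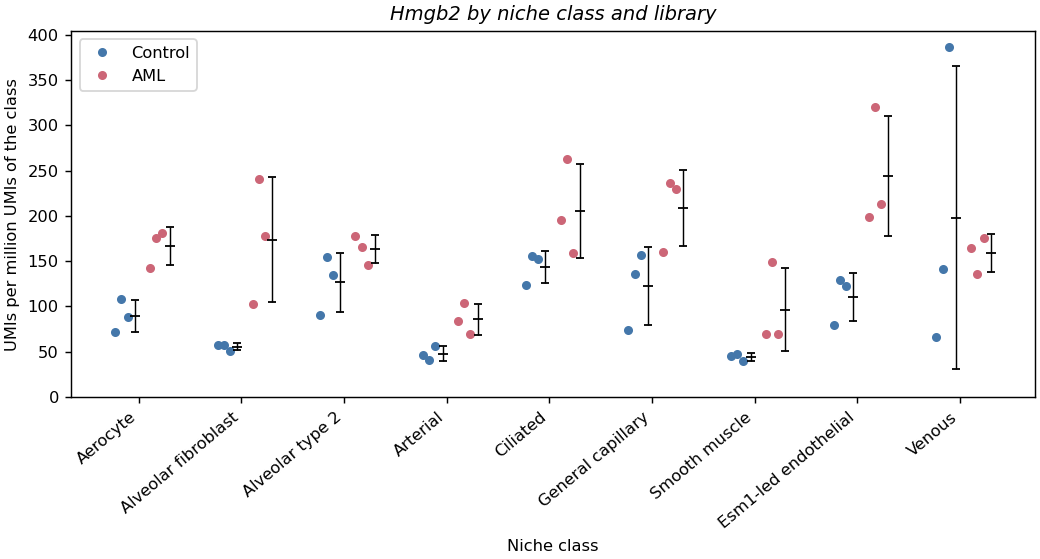
Hmgb2 level (y axis, CPM) in 9 niche classes, 1 point a library, Control blue and AML red, with the mean and SD of 3 libraries beside the points. AML points lie above all Control points in 7 classes; in venous cells Control 3 is highest, at 386 CPM.

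Free RNA of leukaemia cells was measured beside these levels. The 6 genes that mark them, Gata1, Gfi1b, Rhag, Car1, Cpa3 and Klf1, had 190 UMIs in all in the 9 niche classes of the AML libraries and 10 in those of the Control libraries. Their level over that in leukaemia cells gives the share of a class's UMIs that leukaemia RNA could hold, 0 to 0.7245% over 27 pairs of class and library. At that share Hmgb2 from leukaemia cells would come to 0 to 13.1 CPM, whereas 69.6 to 320 CPM was measured. With that RNA subtracted the Hmgb2 log2 differences were 0.85 in aerocytes, 1.65 in fibroblasts and 0.96 in the Esm1-led cluster, and all 3 stayed past the threshold (edgeR adjusted p = 0.0451, 0.0166 and 0.0221). In 5 of the 27 pairs no UMI of the 6 genes was seen, so nothing was subtracted there. The Esm1-led cluster of AML 2 was among these, and its 32 cells were too few to show a share of this size. The 23 core G2/M members from leukaemia cells would come to 0 to 15.7 CPM at that share, and 14.6 to 90.4 CPM was measured, so the ratio of expected to measured was higher for these than for Hmgb2 in each pair above 0. For general capillary cells this was 7.47, 15.3 and 11.5 CPM, of 28.1, 35.5 and 35.0 CPM measured in AML 1, 2 and 3. The haematopoietic list of 15 genes differed between classes: in fibroblasts it measured 407, 2.89 and 8.71 CPM in libraries Control 1, 2 and 3, against 2.98, 6.91 and 13.6 CPM in the AML libraries. In aerocytes it stood at 165, 256 and 242 CPM against 286, 263 and 333 CPM. In the Esm1-led cluster it stood at 127, 150 and 135 CPM against 222, 166 and 156 CPM. In general capillary cells it stood at 144, 197 and 172 CPM against 260, 279 and 263 CPM. In venous cells it stood at 87.7, 96.1 and 81.1 CPM against 144, 165 and 141 CPM. Every AML library lay above every Control library in aerocytes, the Esm1-led cluster, general capillary and venous cells. The groups overlapped in fibroblasts, alveolar type 2, arterial, ciliated and smooth muscle cells. The part of this list in the Hmgb2 levels was not tested.

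In general capillary cells, the largest niche class, 1 mitotic member passed. Cenpf (chr1:189640606-189688086, minus strand) measured 1.85, 8.15 and 12.1 CPM in libraries Control 1, 2 and 3, against 0.60, 1.24 and 1.07 CPM in AML 1, 2 and 3. It fell by 2.82 on the log2 scale (SE 0.63, edgeR adjusted p = 0.0387). All Control libraries lay above all AML libraries. Of its 160 Control UMIs, 144 came from 10 cells called G2/M; the AML libraries had 22 UMIs in all. With cell cycle genes kept for clustering the log2 difference was 0.40 (edgeR adjusted p = 0.687), and with cycling cells left out the gene did not pass the count filter. Top2a moved likewise with cell cycle genes kept, to 2.41 (edgeR adjusted p = 0.0151). The Cenpf call was also lost with doublets kept, and without Control 2, Control 3, AML 2 or AML 3.

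The other mitotic members of these cells did not pass. Mki67 measured 1.52, 6.26 and 15.7 CPM in the Control libraries and 0.80, 1.92 and 1.20 CPM in AML libraries (edgeR adjusted p = 0.108). Top2a stood at 0.67, 9.45 and 23.05 CPM against 3.19, 3.72 and 3.995 (edgeR adjusted p = 0.376). Ube2c stood at 3.88, 10.6 and 9.19 CPM against 4.39, 2.82 and 6.13 (edgeR adjusted p = 0.244). Control 2 and 3 were above the AML libraries in all 3, and Control 1 was not. Birc5 stood at 0.17, 2.48 and 3.92 CPM against 0.20, 3.05 and 2.80 (edgeR adjusted p = 0.996). Cdk1, Ccnb1, Ccnb2 and Rrm2 did not pass the count filter, with Cdk1 at 0.17, 3.66 and 7.08 CPM against 0.60, 0.23 and 0.40. Ccnb1 had 1, 7 and 4 UMIs in the Control libraries against 2, 6 and 4 in AML libraries. Ccnb2 had 2, 19 and 15 UMIs against 0, 11 and 3, and Rrm2 had 3, 10 and 31 against 1, 13 and 3.

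No S member passed. Pcna measured 72.0, 61.3 and 74.1 CPM in the Control libraries and 67.3, 98.7 and 87.2 CPM in AML libraries (log2 difference 0.34, SE 0.19, edgeR adjusted p = 0.302). Mcm6 stood at 16.5, 16.2 and 18.5 CPM against 18.6, 26.1 and 26.0 (0.52, SE 0.20, edgeR adjusted p = 0.154). Mcm5 stood at 2.36, 4.25 and 4.52 CPM against 4.99, 3.50 and 5.33. Tyms stood at 10.3, 10.4 and 15.1 CPM against 16.0, 17.1 and 12.9 (edgeR adjusted p = 0.297). Pclaf stood at 2.02, 1.65 and 6.93 CPM against 1.60, 1.24 and 1.60 (edgeR adjusted p = 0.221). Only Mcm6 of these had AML values all above Control values. Tk1, thymidine kinase, named after its values were seen, had 2.53, 1.42 and 2.71 CPM against 0.80, 0.79 and 0.67, with every Control library above every AML library (log2 difference -1.48, SE 0.46, edgeR adjusted p = 0.0989). Stmn1 stood at 394, 583 and 627 CPM against 475, 181 and 271 (log2 difference -0.78, SE 0.32, edgeR adjusted p = 0.174), lower in AML 2 and AML 3 than in any Control library.

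Cells in G2/M were found in Control niche cells of several classes, and few were found in AML niche cells. Over the niche classes and the unnamed clusters, without those of few UMIs per cell, 1, 5 and 13 cells were called G2/M in Control 1, 2 and 3, of 1271, 3052 and 2898 cells, and 1, 3 and 3 in AML 1, 2 and 3, of 3116, 2857 and 3368 cells. The Control cells carried 3 to 19 of the 23 core genes in 2000 UMIs, with a median of 13, and 11 of the 19 carried at least 10. The AML cells carried 3 to 6, with a median of 4, and none of the 7 carried 10. Of the 7 AML cells 3 held a UMI of the leukaemia genes, and of the 19 Control cells none did. These counts cannot be set against each other, since the Control suspensions had no leukaemia cells mixed in. No rate of such UMIs in other AML niche cells is given beside the 3 of 7, so their source was not tested. In general capillary cells the G2/M calls were 1, 2 and 7 in Control 1, 2 and 3 and 0, 2 and 0 in AML 1, 2 and 3. A count of 0 of 1062 and of 1706 cells allows shares of up to 0.282% and 0.176%. The class held 1228 and 2305 cells in AML 1 and 3 before those under 2000 UMIs were left out. These counts are of cells in 3 libraries a group and Control 3 holds most of them, so no test was made of them.

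In several libraries few cells held most of the core G2/M UMIs of a class. In general capillary cells of Control 2 and 3, the 2 and 7 G2/M cells held 74.7 and 85.7% of the core G2/M UMIs; in AML 2 the 2 cells held 3.81%. In venous cells of Control 3, 5 cells held 96.9% of them. Per 1e6 UMIs of the whole class, those cells gave 1054 of the core sum and all other cells gave 33.7. In alveolar type 2 cells of Control 2, 2 cells held 90.7%. Outside these cells the core sum of general capillary cells was 24.3, 20.9 and 20.9 CPM for Control 1, 2 and 3, against 28.1, 34.2 and 35.0 CPM for AML 1, 2 and 3, where free leukaemia RNA could give the values above. In alveolar fibroblasts the order was turned: no Control cell was called G2/M, and 1 cell of AML 2 and 2 of AML 3 were. Those in AML 3 held 2 and 0 UMIs of the fibroblast markers.

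**Figure D4:**
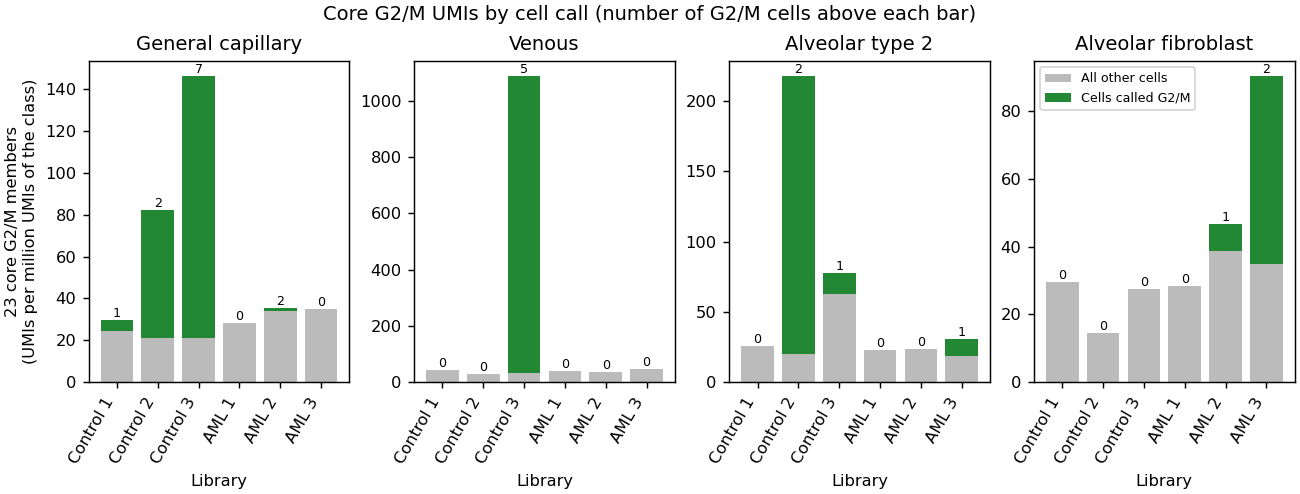
Summed level of 23 core G2/M members (y axis, CPM) in 4 niche classes and 6 libraries, split into cells called G2/M (green) and all other cells (grey), with the number of G2/M cells above each bar; y axes differ between panels. The tallest bars, venous cells of Control 3 and alveolar type 2 cells of Control 2, are mostly green.

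Summed over the 25 G2/M members, levels were higher in every AML library than in every Control library in aerocytes, alveolar fibroblasts, the Esm1-led cluster and smooth muscle cells. Each gave p = 0.1 by a two-sided exact permutation test, the smallest value that 3 against 3 libraries allow, so no call could be made. In alveolar fibroblasts the sums were 90.6, 78.1 and 84.2 CPM in Control and 138, 293 and 277 CPM in AML libraries. In smooth muscle cells they were 66.9, 68.3 and 79.6 CPM against 103, 178 and 98.2 CPM. Hmgb2 alone gave 103, 241 and 178 CPM of the fibroblast sums in AML libraries. In smooth muscle cells Hmgb2 averaged 44.2 CPM in Control and 96.2 CPM in AML libraries, whereas the 23 core members together averaged 23.6 and 22.9 CPM. In general capillary cells the sums overlapped, at 106, 224 and 314 CPM against 194, 279 and 272 CPM (exact permutation p = 0.7). In venous cells they were 112, 173 and 1526 CPM against 208, 177 and 224 CPM (exact permutation p = 1.0), and with cycling cells left out the log2 difference changed from -0.62 to 0.56. S sums were higher in all AML libraries in aerocytes, 157 ± 8.16 against 206 ± 39.0 CPM (SD, n = 3, exact permutation p = 0.1), and in ciliated cells, 87.9 ± 19.0 against 118 ± 5.59 CPM (exact permutation p = 0.1).

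No niche class passed a test of the share of cycling cells, and 3 against 3 libraries could not reach the threshold. General capillary cells had 0.35, 0.52 and 0.68% in Control and 0.38, 0.45 and 0.18% in AML libraries (exact permutation p = 0.3). Venous cells had 1.35, 0 and 3.82% against 0.47, 0 and 0.43% (exact permutation p = 0.4). Over the 9 classes the exact permutation p ran from 0.3 to 1.0. Without thinning, 10.2, 2.26 and 3.29% of general capillary cells were called in the Control and 1.87, 3.83 and 1.69% in the AML libraries, and the groups overlapped. Among the removed doublets, 29, 28 and 23 cells were called cycling in AML 1, 2 and 3 and 0, 0 and 1 in Control 1, 2 and 3.

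The regulators were tested in the same classes. Of the 30 genes, 151 tests over 9 classes gave 4 rises and 10 falls, beside the percentages of all genes called given above. Ccnd2, a D-type cyclin, fell in arterial, venous, general capillary and aerocyte cells and in the Esm1-led cluster. In arterial cells it measured 474, 370 and 425 CPM in the Control libraries and 227, 152 and 178 CPM in AML libraries, and fell by 1.18 on the log2 scale (SE 0.24, edgeR adjusted p = 0.043). It fell by 1.38 in venous cells (edgeR adjusted p = 0.0491), 1.12 in the Esm1-led cluster (0.0123), 0.97 in aerocytes (0.0427) and 0.78 in general capillary cells (0.0387). In each of these classes all AML libraries lay below all Control libraries. Each call was lost without at least 1 library: in arterial cells without any but AML 1, in general capillary cells without any but Control 2, in aerocytes and venous cells without Control 1, Control 3, AML 2 or AML 3, and in the Esm1-led cluster without AML 1 or AML 2. AML 2 had 3 UMIs of Ccnd2 in that cluster.

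Cdk6, which pairs with the D-type cyclins, fell in general capillary cells, where it measured 108, 65.1 and 99.6 CPM in the Control libraries and 37.9, 26.4 and 24.1 CPM in AML libraries (log2 difference -1.59, SE 0.22, edgeR adjusted p = 0.0094). It fell also in the Esm1-led cluster (-1.89, edgeR adjusted p = 0.000456) and in alveolar fibroblasts, at 50.5, 28.9 and 36.3 CPM against 16.4, 8.64 and 13.6 CPM (-1.58, edgeR adjusted p = 0.0337). Ccnd1 fell in general capillary cells, from 209, 213 and 224 CPM to 126, 134 and 122 CPM (-0.72, SE 0.17, edgeR adjusted p = 0.0401), and in the Esm1-led cluster (-1.76, edgeR adjusted p = 6.88e-05). The AML values lay below the Control values in each. Cdk6 and Ccnd1 in the Esm1-led cluster passed without each of the 6 libraries in turn, with 4 and 8 UMIs in AML 2. Cdk6 was lost in general capillary cells without Control 1 or AML 3, and in fibroblasts without Control 1, Control 3, AML 2 or AML 3. Ccnd1 in general capillary cells was lost without any 1 of the 6. Leukaemia cells held more Cdk6 and Ccnd2 than the niche (above).

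The 4 rises were 3 inhibitors and Myc. Cdkn1a in general capillary cells measured 1059, 1394 and 881 CPM in the Control libraries and 1810, 2951 and 2350 CPM in AML libraries, and rose by 1.14 (SE 0.27, edgeR adjusted p = 0.0452). Myc rose there too (log2 difference 5.57, SE 1.05, edgeR adjusted p = 0.0387), from 1, 4 and 1 UMIs in Control to 22, 255 and 51 in AML libraries, so most of the AML signal lay in AML 2 and the size of the change rests on 6 Control UMIs. In the Esm1-led cluster Cdkn2c and Cdkn2d rose (1.65 and 0.95, edgeR adjusted p = 0.0398 and 0.0439). Cdkn2c was at 0 UMIs and Cdkn2d at 3 UMIs in the 32 cells of AML 2, so neither rise was seen in all AML libraries, and DESeq2 called neither. The Cdkn1a call needed Control 1, Control 3, AML 2 and AML 3, and the Myc call every Control library and AML 3. Cdkn2c was lost without Control 1 or any AML library, and Cdkn2d without any library but Control 2.

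**Figure D5:**
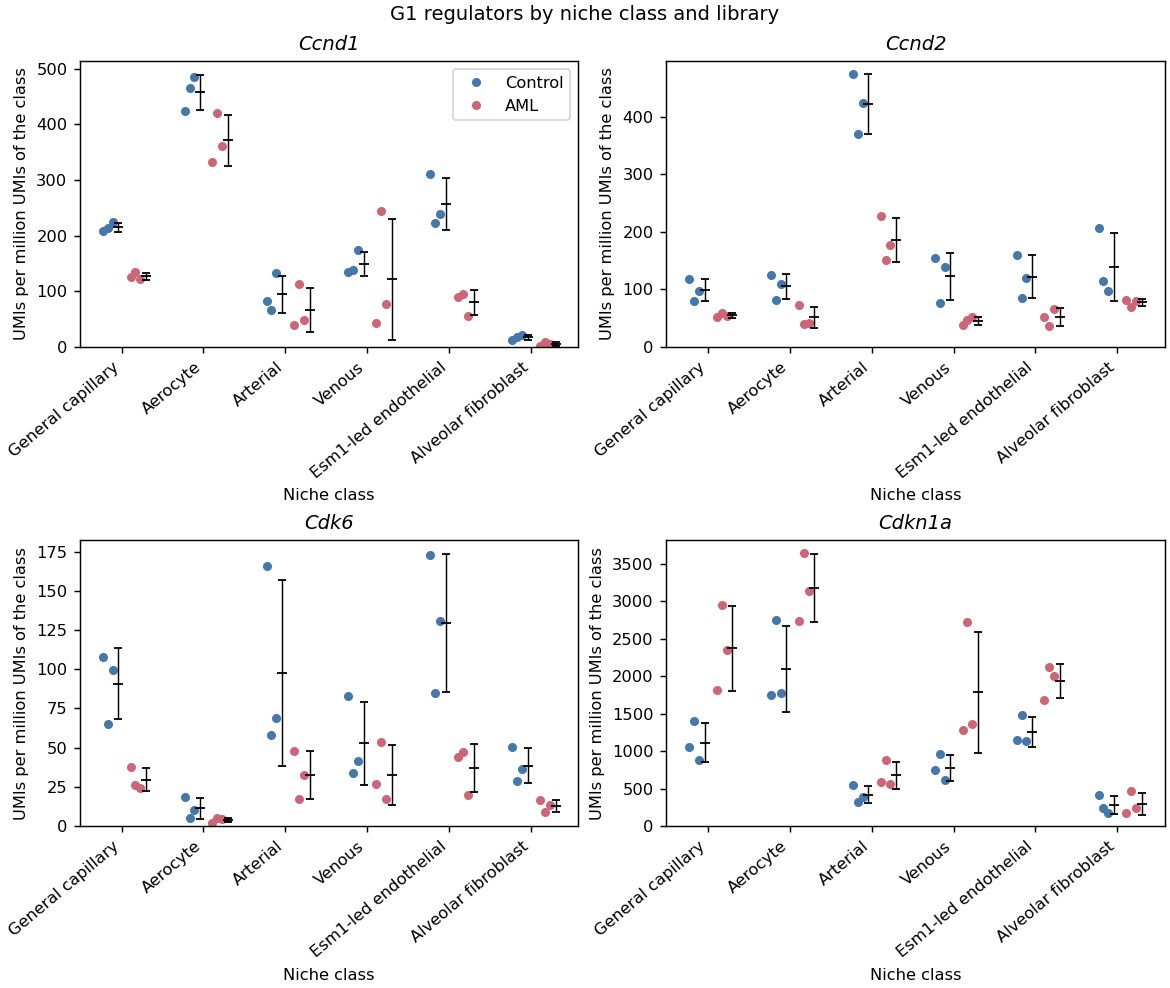
Levels of Ccnd1, Ccnd2, Cdk6 and Cdkn1a (y axis, CPM) in 6 niche classes, 1 point a library, Control blue and AML red, with the mean and SD of 3 libraries. Ccnd2 and Cdk6 in general capillary cells lie at 51.3 to 59.7 and 24.1 to 37.9 CPM in AML libraries, below every Control library.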

How the data were processed

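Per the labels, 10x 3' v3.1 libraries were processed on mm10 with Cell Ranger, and the authors deposited unnormalized UMI counts for 32285 features. Its version is 6.0.1 in the file headers but 7.0.0 in the submitters' processing notes, which cannot be told apart here. Barcodes with fewer than 500 genes (3415) or over 15% mitochondrial UMIs (461) were removed, and so were 895 cells with the highest Scrublet scores, 0.8% per 1000 cells. Cells were clustered on 2000 variable genes without 75 cell cycle genes, 30 components, 15 neighbours and Leiden resolution 1.0 (scanpy 1.11.5, seed 7), and clusters named by fixed markers. A cluster led by haemoglobin genes, 464 cells of Control 3 and 1 of AML 3, stayed unnamed.

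UMIs were summed per library and class and tested with the quasi-likelihood test of edgeR 4.0.16 (robust, TMM scaling, filterByExpr), as AML minus Control, and p-values were adjusted by Benjamini-Hochberg over every tested gene, with 0.05 as threshold. CPM values are unscaled. Levels summed by phase, on the log2(CPM + 1) scale, and shares of cycling cells were compared by exact permutation tests. The fit was tested on simulated data. Values in every library are given for members past the threshold and for 16 fixed members in general capillary and leukaemia cells; other genes appear by count, or past the threshold. The members and lists were chosen with earlier results of these data known. The labels name no batch.

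Alternatives were DESeq2 1.42.0, its size factors, no count filter, a replicate block, each library left out, doublets kept, 2 forms of free RNA subtraction, cell cycle genes kept for clustering, resolution 0.5, and other call rules and depths. Subtraction by leukaemia genes and the leaving out of cycling cells were added after the data were seen.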

Additional observations from a re-analysis of the deposited data

Results flagged for a closer look

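Barcodes with fewer than 500 genes, which no comparison used, held more cell cycle UMIs in the AML than in the Control libraries. In these barcodes the 23 core G2/M members measured 12.3, 49.6 and 25.4 CPM in libraries Control 1, 2 and 3, against 101, 82.1 and 102 CPM in AML 1, 2 and 3. The 6 leukaemia genes stood there at 9.81, 8.27 and 0 CPM in the Control and at 38.4, 22.2 and 56.1 CPM in the AML libraries. The AML values rest on 37, 74 and 42 core G2/M UMIs and on 14, 20 and 23 UMIs of the leukaemia genes. All AML libraries lay above all Control libraries in both. Whether these barcodes are empty droplets, broken cells or small cells was not tested.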

How the results depend on the processing

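With each library left out the number of members called ranged from 0 to 1 in aerocytes, 0 to 3 in alveolar fibroblasts, 0 to 5 in alveolar type 2, 0 to 1 in arterial, 0 to 4 in general capillary, 0 to 1 in Esm1-led and 0 to 1 in venous cells, and stayed at 0 in ciliated and smooth muscle cells. In aerocytes 49 to 360 of all genes were called, in alveolar fibroblasts 16 to 382 and in alveolar type 2 cells 56 to 756. For arterial cells this was 0 to 123, for general capillary 10 to 1195, for Esm1-led 56 to 362 and for venous 0 to 312. For ciliated and smooth muscle cells it was 23 to 129 and 26 to 76. Without a count filter 3, 2, 10, 2, 2 and 3 members were called in aerocytes, alveolar fibroblasts, alveolar type 2, general capillary, Esm1-led and venous cells. In the same setting 586 of 16206, 635 of 16863 and 912 of 17405 genes were called in aerocytes, fibroblasts and alveolar type 2 cells. In general capillary, Esm1-led and venous cells 1062 of 19220, 347 of 16534 and 294 of 15792 genes were called. In general capillary cells DESeq2 called 3 and the replicate block 4 members, beside 892 and 564 of all 11345 genes. The leukaemia gene subtraction and the kept cell cycle genes called 2 members each there, beside 400 of 11298 and 506 of 11601 genes. Kept cell cycle genes gave 2 members in fibroblasts, where Stmn1 was the second, beside 198 of 6200 genes. Leaving cycling cells out gave 2 in alveolar type 2 and 2 in Esm1-led cells, beside 391 of 9736 and 229 of 9398 genes. Keeping doublets gave 1 in ciliated, 1 in smooth muscle and 0 in Esm1-led cells. Over all genes it gave more calls in ciliated cells than with doublets removed, and fewer in smooth muscle and Esm1-led cells.

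The shared replicate numbers did not pair the libraries, with correlations between same-numbered libraries from -0.197 to 0.102, so the block is an alternative only. Under the replicate block Cenpf, Prc1, Mki67 and Hmgb2 were the 4 members called in general capillary cells, and the calls of Cdk6 in fibroblasts, of Ccnd1 and Ccnd2 in general capillary cells and of Ccnd2 in venous cells were lost (edgeR adjusted p = 0.0648, 0.0521, 0.0583 and 0.0608).

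Beyond the left-out libraries named beside each gene, leaving cycling cells out ended the calls of Ccnd2 in aerocytes, Cdk6 in fibroblasts and Cdkn2d in Esm1-led cells. Keeping doublets ended those of Myc and Cdkn1a in general capillary, Hmgb2 in Esm1-led and Ccnd2 in venous cells. Kept cell cycle genes ended those of Cdkn1a in general capillary and Ccnd2 in venous cells, and no count filter ended that of Myc. With cell cycle genes kept for clustering, Esm1-led and smooth muscle cells were not tested. At resolution 0.5 these classes and general capillary cells were not tested. The calls of those classes were thus not checked in those settings.

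The subtraction by the haematopoietic list expected more G2/M RNA than was measured in every AML library of 7 classes (all but fibroblasts and smooth muscle), and Control classes hold the list themselves, at 2.89 to 407 CPM. It gave 4, 0, 4, 3, 8, 3 and 1 members called in aerocytes, alveolar fibroblasts, alveolar type 2, ciliated, general capillary, Esm1-led and venous cells. Genes called in all were 939 of 8656 in aerocytes, 79 of 7732 in fibroblasts and 515 of 9674 in alveolar type 2 cells. In ciliated and general capillary cells they were 399 of 6314 and 935 of 11000. In Esm1-led and venous cells they were 350 of 9273 and 83 of 8504. Hmgb2 turned to -9.78 in aerocytes and -4.18 in Esm1-led cells. The G2/M log2 differences became -5.98, 2.99, -2.17, -1.82, -7.25, -7.31, 0.41, -4.17 and -8.10 in aerocytes, fibroblasts, alveolar type 2, arterial, ciliated, general capillary, smooth muscle, Esm1-led and venous cells, and the S ones -1.62, -1.70, -0.62, -5.50, -2.98, -0.0513, -1.28 and -2.12 in the same order without fibroblasts. Cenpf in general capillary cells turned to 0.40 with cell cycle genes kept for clustering.

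Keeping doublets moved the log2 differences to 0.45 (fibroblast S), 0.71 and 0.71 (alveolar type 2, G2/M and S), 1.58 and 1.41 (ciliated), 1.63 and 0.55 (smooth muscle) and 0.0798 (Esm1-led S). Leaving cycling cells out moved them to 0.47 and 0.25 in alveolar type 2, 1.16 and 0.14 in arterial, 1.01 in general capillary (G2/M) and 0.16 in venous cells (S). Kept cell cycle genes moved them to 0.99 in general capillary (G2/M) and -0.53 in venous cells (S). With a library left out the G2/M differences ranged from 0.82 to 1.09 in aerocytes, 1.21 to 1.75 in fibroblasts, -0.60 to 0.26 in alveolar type 2, -0.06 to 0.59 in arterial, 0.17 to 0.45 in ciliated, -0.11 to 0.66 in general capillary, 0.49 to 0.92 in smooth muscle, 0.92 to 1.25 in Esm1-led and -1.35 to 0.53 in venous cells.

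Cycling shares, AML minus Control in percentage points, became -5.18, -3.89, -8.09, -16.7, -5.16, -2.79, -5.03, -5.24 and -6.65 without thinning, in the order of aerocytes, fibroblasts, alveolar type 2, arterial, ciliated, general capillary, smooth muscle, Esm1-led and venous cells. With 2 genes for a call they were 3.83, 1.39, -1.24, -2.20, 1.53, 0.41 and 1.54 in the same order without ciliated and venous cells. Keeping doublets gave 0.122 in alveolar type 2 and 3.89 in ciliated cells, and kept cell cycle genes 0.233 in general capillary and -3.16 in venous cells. The leukaemia share was 90.2% without thinning, 37.5% at 1000 UMIs and 69.0% with 2 genes. The cause of these shifts was not tested.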
